A study of Mus musculus with 6 samples.

Results

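The 10 genes described here encode the 3 TGF-beta ligands (Tgfb1, Tgfb2 and Tgfb3), the activin A subunit (Inhba), a latent TGF-beta binding protein (Ltbp1), 3 TGF-beta receptors (Tgfbr1, Tgfbr2 and Tgfbr3) and both inhibitory Smads (Smad6 and Smad7). They were chosen by name from the 19936 genes that the arrays measure with a probe set of their own, and all 10 were found. The choice was made with earlier results of these data known. TGF-beta is secreted in a latent complex that LTBP proteins tether to the matrix. Once released, it brings the receptors TGFBR2 and TGFBR1 together, which phosphorylate SMAD2 and SMAD3 to act with SMAD4 on target genes, while SMAD6 and SMAD7 limit the signal. In fibroblasts the pathway is known for driving matrix production and contractile gene expression, and the inhibitory Smads are themselves among its feedback targets.

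Gene expression was measured on Affymetrix arrays in a stable line derived from mouse embryonic fibroblasts (MEFs). Both groups are of the Tet-off type, meaning that the cells carry a transactivator whose action on transgenes tetracyclines switch off. Controls were 3 RNA samples of Tet-off cells that had not been transfected. The HA-Fbxl10 group held 3 RNA samples of these cells after transfection with HA-tagged Fbxl10 cDNA and a hygromycin resistance plasmid, from clones picked for expressing the transgene. The control cells carried neither plasmid, so transfection, drug selection and the choice of clones cannot be told apart from Fbxl10 itself. Fbxl10 (current symbol Kdm2b) is a histone demethylase that binds CpG through a zinc finger. The labels call the RNA samples independent without tying them to separate cultures or clones, and the p-values therefore cover the spread between these samples, possibly a technical one. Neither embryo age nor tetracycline treatment is stated in the labels.

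Values below are log2 levels, so a difference of 1 is a factor of 2, and each error is an SD over 3 arrays unless it is named as a standard error. Kdm2b lay between 7.28 and 7.45 on the 3 control arrays and between 9.58 and 9.77 on the 3 HA-Fbxl10 arrays, 5.03-fold higher. Arrays of 1 group correlated at 0.994 to 0.996 over all probe sets and arrays of different groups at 0.990 to 0.992. Among 14 fibroblast markers 11 lay above the median level of all genes (5.36), with Vim at 12.88 and Col1a2 at 12.56 in control cells. Lum (2.83) lay below the lower quartile of all genes (3.75), and Thy1 (4.59) and Dcn (4.69) lay below the median. Of these 14 markers, 5 were lower in HA-Fbxl10 cells and 0 higher by the limma test described below, led by Col3a1 (-0.79 ± 0.07, SE) and S100a4 (-0.64 ± 0.08, SE), of which S100a4 was left at -0.20 and not called once the median of its neighbours on the chromosome was removed. The test called 10.6% of all genes lower and 37.0% of genes above the median level in either direction. The share called lower among genes above the median level was not computed. Neither share is thus a like measure for the count of these markers, which holds lower genes only. The summed level of the fibroblast list, on the linear scale, ran from 24620 to 25930 on control arrays and from 21750 to 23230 on HA-Fbxl10 arrays, and its part in the results below was not tested. Markers of other cell types were mostly dim. The numbers above the median level were 2 of 9 for macrophages and leukocytes, 0 of 8 for endothelium, 2 of 8 for epithelium, 2 of 8 for skeletal muscle and 0 of 8 for fat cells. Among these 41 markers Lpl (1.04), Fabp4 (0.61) and Kdr (0.51) were higher and Cd14 (-0.45) and Retn (-0.32) lower in HA-Fbxl10 cells (log2 differences) and the other 36 did not pass. In control cells Lpl (3.45) and Kdr (3.69) lay below the lower quartile, where signal and background cannot be told apart in these values. Cd14 fell short of the threshold when replicate 1 or 3 of a group was left out (adjusted p of 0.0850 to 0.119), and Retn when replicate 1 or 2 of control or 2 or 3 of HA-Fbxl10 was (0.0649 to 0.0792). The summed level of the fat cell list was higher in HA-Fbxl10 cells (182.6 to 197.7 on control and 206.1 to 216.3 on HA-Fbxl10 arrays). That of the macrophage and leukocyte list was lower (202.7 to 212.4 and 190.6 to 200.3). In the macrophage and leukocyte list 8 of 9 genes did not pass, and the median log2 difference was -0.0072. Its mean log2 levels overlapped (4.12 to 4.199 on control and 4.109 to 4.138 on HA-Fbxl10 arrays). Those of the fat cell list did not overlap, but 5 of its 8 genes did not pass and its median was 0.038. The summed levels of the groups overlapped for the endothelial (142.8 to 156.3 and 145.4 to 156.1), epithelial (251.8 to 265.1 and 230.7 to 260.3) and muscle lists (290.9 to 326.5 and 294.5 to 326.8). In bulk RNA, fewer cells of a kind and less RNA per cell cannot be told apart.

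The comparison asks which genes of the pathway differ in transcript level between HA-Fbxl10 cells and the parent line. Of the 10 genes, 4 were higher in HA-Fbxl10 cells (Tgfb2, Tgfb3, Tgfbr3 and Smad6), 1 was lower (Tgfb1) and 5 did not pass the test (Inhba, Ltbp1, Tgfbr1, Tgfbr2 and Smad7). The test was limma's moderated test with Benjamini-Hochberg adjustment over all 19936 genes and a threshold of 0.05. It called 21.1% of all genes, 10.5% higher and 10.6% lower. All 10 genes lay above the median level, and among genes above that median 37.0% were called. The arrays of the groups did not overlap for 8 of the 10 genes, against 36.0% of all genes, dim ones included. The share among genes above the median level was not computed. The median log2 difference was 0.20 over the 10 genes and -0.0043 over all genes. For only 10 genes, picked by name with earlier results known, these counts describe the genes and are no test of the pathway.

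**Figure D1:**
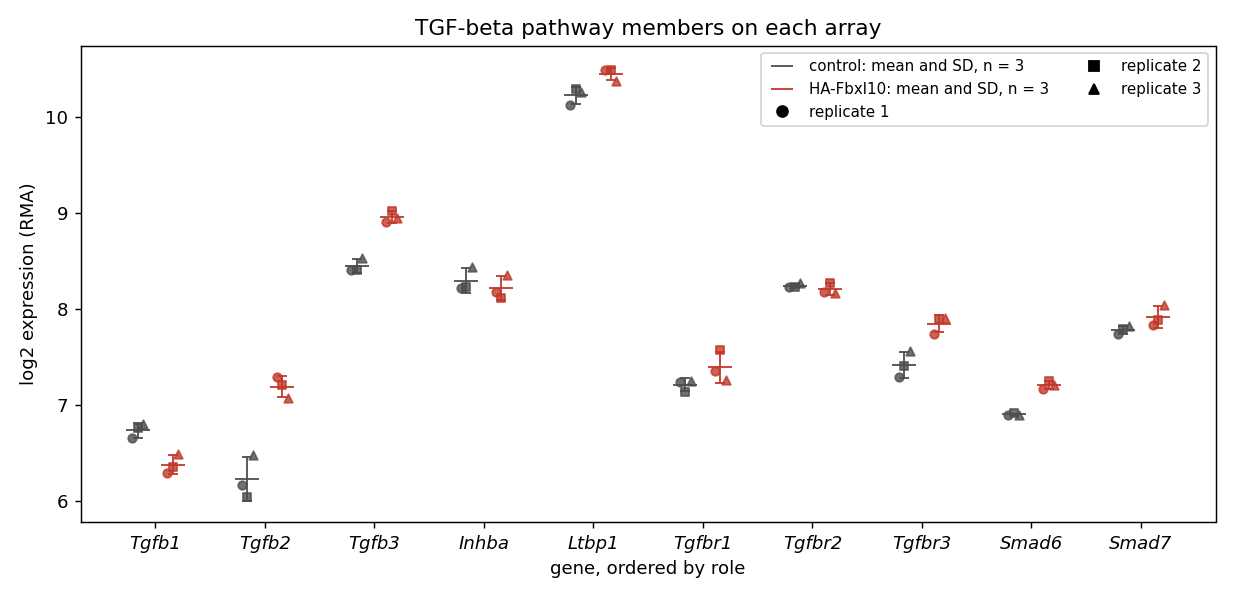
Log2 expression of the 10 genes on each of the 6 arrays, ordered by role along the x axis (grey, control; red, HA-Fbxl10; markers are replicates, horizontal bars the mean and whiskers the SD, n = 3). The groups do not overlap for any gene except Inhba and Tgfbr2, with the widest gap at Tgfb2. Those of Tgfbr1 and Smad7 nearly touch. Heights of different genes are not comparable, because each gene has its own probes.

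The ligand genes changed in different directions. Tgfb2, which encodes a ligand that needs the co-receptor TGFBR3 for efficient binding, gave 6.17, 6.04 and 6.48 on control arrays and 7.29, 7.21 and 7.07 on HA-Fbxl10 arrays. Every HA-Fbxl10 array lay above every control array, and control replicate 3 stood nearest to them. The group means were 6.23 ± 0.23 and 7.19 ± 0.11 (SD, n = 3 each), a 1.95-fold rise (log2 difference 0.96 ± 0.11, SE; limma adjusted p = 0.000366). Tgfb2 had the largest change of the 10 genes, larger in size than that of 98.9% of all genes, and no other of the 10 had so wide a spread among its control arrays.

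Tgfb3, whose product is the ligand most associated with palate fusion in development, gave 8.41, 8.40 and 8.53 on control arrays and 8.91, 9.02 and 8.95 on HA-Fbxl10 arrays. Both groups were tight and well apart. The means were 8.45 ± 0.07 and 8.96 ± 0.06 (SD, n = 3 each), a 1.43-fold rise (log2 difference 0.51 ± 0.07, SE; limma adjusted p = 0.000718).

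Tgfb1, which encodes the most widely expressed of the 3 TGF-beta ligands, moved the other way. It gave 6.65, 6.76 and 6.80 on control arrays and 6.29, 6.35 and 6.49 on HA-Fbxl10 arrays. The groups did not overlap, but the highest HA-Fbxl10 array and the lowest control array were close. The means were 6.74 ± 0.08 and 6.38 ± 0.10 (SD, n = 3 each), a 1.28-fold fall (log2 difference -0.36 ± 0.08, SE; limma adjusted p = 0.00814). Taken array by array, the log2 value of Tgfb2 minus that of Tgfb1 ran from -0.72 to -0.32 in control cells and from 0.58 to 1.00 in HA-Fbxl10 cells. Because the probes differ, only the shift of this difference between the groups can be read, and it was looked at after both changes were known, so it carries no test of its own.

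Tgfb1 and Tgfb2 are shown by sequence because their changes ran opposite ways and because the zinc finger of Fbxl10 binds CpG dinucleotides, which are in capitals here. Each line gives the 250 bases before and 50 bases after the annotated start of transcription, 5′ to 3′ on the strand of the gene, from RefSeq on GRCm38.p6. The Tgfb1 window is chr7:25686752-25687051 on the plus strand and the Tgfb2 window is chr1:186705940-186706239 on the minus strand.

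Tgfb1: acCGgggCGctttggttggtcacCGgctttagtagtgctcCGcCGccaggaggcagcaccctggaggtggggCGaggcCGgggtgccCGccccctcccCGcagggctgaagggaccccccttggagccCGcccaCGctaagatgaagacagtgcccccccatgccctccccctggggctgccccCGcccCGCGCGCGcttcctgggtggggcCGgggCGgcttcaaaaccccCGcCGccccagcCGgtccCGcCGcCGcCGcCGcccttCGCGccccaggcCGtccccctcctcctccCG

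Tgfb2: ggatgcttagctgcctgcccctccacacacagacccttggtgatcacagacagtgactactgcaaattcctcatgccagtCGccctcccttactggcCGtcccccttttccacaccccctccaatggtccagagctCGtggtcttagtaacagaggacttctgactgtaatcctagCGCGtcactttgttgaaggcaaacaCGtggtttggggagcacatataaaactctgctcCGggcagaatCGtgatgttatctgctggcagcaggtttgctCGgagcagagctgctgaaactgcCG

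The Tgfb1 window holds 30 CpG dinucleotides and is 77.0% G and C, and the Tgfb2 window holds 10 and is 54.3% G and C. The median of the 32851 windows of the same length in the table is 7 CpG, and 88.3% of them hold fewer than Tgfb1 and 56.5% fewer than Tgfb2. The GC box GGGCGG, searched on both strands, was found 6 times in the Tgfb1 window and 0 times in that of Tgfb2, and 35.7% of all windows hold it. In the Tgfb2 window the letters TATAAA (held by 13.6% of windows) begin 31 bases and the palindrome CACGTG (7.15%) 51 bases before the start of transcription. The Smad-binding core CAGAC was found 2 times in the Tgfb2 window and 0 times in that of Tgfb1, and 49.6% of windows hold it on either strand. TGANTCA, the AP-1 site (7.81% of windows), was in none of the windows of these genes, and the palindrome TGACGTCA (1.79%) was only in a window of Ltbp1, 73 bases before a start. The table matched 7 of the 10 genes with 9 windows. CpG counts were 31 for Smad6, 15 for Tgfbr2, 7 for Inhba, 34 and 3 for the alternative starts of Tgfbr1 and 17 and 7 for those of Ltbp1. Binding of Fbxl10 was not measured here, and a match of letters is not a site.

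Inhba, which encodes the subunit that pairs into activin A, gave 8.21, 8.22 and 8.44 on control arrays and 8.18, 8.12 and 8.36 on HA-Fbxl10 arrays. The groups overlapped, with replicate 3 the highest array in each. The log2 difference was -0.08 ± 0.09 (SE; limma adjusted p = 0.649), with a 95% interval of -0.28 to 0.13. Its sister Inhbb, the activin B subunit, gave 6.45, 6.31 and 6.54 on control arrays and 7.47, 7.56 and 7.43 on HA-Fbxl10 arrays. It rose 2.07-fold (log2 difference 1.05 ± 0.08, SE; limma adjusted p = 2.59e-05), with the groups well apart. Fst encodes follistatin, a secreted protein that binds and blocks activins. It gave 7.25, 7.11 and 7.33 on control arrays and 8.67, 8.67 and 8.62 on HA-Fbxl10 arrays, a 2.68-fold rise (log2 difference 1.42 ± 0.07, SE; limma adjusted p = 3.26e-06). Fst had the largest rise in any of the 7 lists of other pathway genes described below.

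Ltbp1, whose product holds latent TGF-beta in the matrix, gave 10.12, 10.29 and 10.27 on control arrays and 10.49, 10.49 and 10.38 on HA-Fbxl10 arrays. The groups did not overlap, yet the gene missed the threshold (log2 difference 0.23 ± 0.07, SE; limma adjusted p = 0.0536; 95% interval 0.06 to 0.39). Its adjusted p ran from 0.00410 to 0.834 over the 15 other settings of the fit and lay under the threshold in 4 of them. Its probe set is annotated to 2 RefSeq transcripts, long and short forms with separate starts, which these values cannot separate. Among related genes, Ltbp2 rose 1.60-fold, from 7.07 ± 0.06 to 7.75 ± 0.04 (SD, n = 3 each), with the groups well apart (log2 difference 0.68 ± 0.07, SE; limma adjusted p = 0.000124). Ltbp3 was lower (-0.28 ± 0.08, SE; limma adjusted p = 0.0313) and Ltbp4 did not pass (0.17 ± 0.07, SE; limma adjusted p = 0.137). The call of Ltbp3 held without control replicate 1 but ended without any other single array (adjusted p of 0.0620 to 0.0992).

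Of the receptor genes, Tgfbr3 was the only one past the threshold. It encodes betaglycan, the co-receptor that presents TGF-beta ligands, and gave 7.29, 7.41 and 7.56 on control arrays and 7.74, 7.89 and 7.91 on HA-Fbxl10 arrays. The lowest HA-Fbxl10 array lay above the highest control array. The means were 7.42 ± 0.13 and 7.85 ± 0.09 (SD, n = 3 each), a 1.34-fold rise (log2 difference 0.43 ± 0.08, SE; limma adjusted p = 0.00595). Tgfbr1, the type I receptor with the kinase that phosphorylates SMAD2 and SMAD3, gave 7.24, 7.14 and 7.25 on control arrays and 7.35, 7.57 and 7.26 on HA-Fbxl10 arrays. The groups touched, HA-Fbxl10 replicate 3 lying just above the control arrays and replicate 2 standing apart. Its log2 difference was 0.18 ± 0.09 (SE; limma adjusted p = 0.199), with a 95% interval of -0.02 to 0.38, and it was 0.09 without HA-Fbxl10 replicate 2.

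Tgfbr2, the type II receptor that binds ligand and activates TGFBR1, had almost the same level in both groups. It gave 8.23, 8.23 and 8.27 on control arrays and 8.18, 8.28 and 8.16 on HA-Fbxl10 arrays, and the groups overlapped. The log2 difference was -0.04 ± 0.06 (SE; limma adjusted p = 0.764), with a 95% interval of -0.18 to 0.11, so a rise as large as that of Tgfbr3 lies outside it. Whether the changes of these receptor genes differ from each other was not tested.

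**Figure D2:**
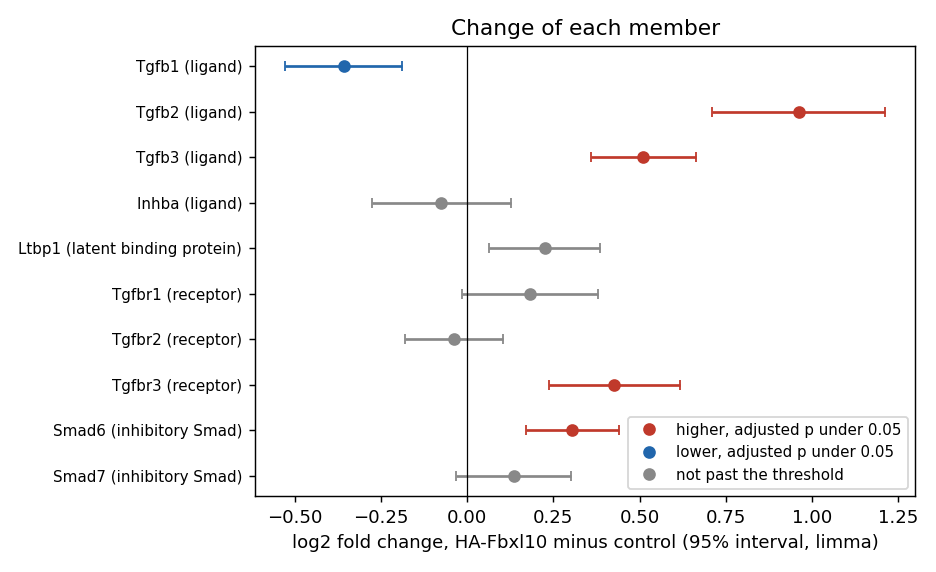
Log2 fold change (HA-Fbxl10 minus control) of each gene on the x axis, with its 95% interval from limma (3 against 3 arrays); red and blue mark genes past an adjusted p of 0.05. Tgfb2 (0.96) lies farthest to the right and Tgfb1 (-0.36) is the only gene called lower.

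Both inhibitory Smads had higher means in HA-Fbxl10 cells, and 1 passed the test. Smad6, whose product acts mainly on the BMP branch, gave 6.90, 6.91 and 6.89 on control arrays and 7.16, 7.25 and 7.21 on HA-Fbxl10 arrays. The control arrays were nearly equal, and the groups were well apart. The means were 6.90 ± 0.0095 and 7.21 ± 0.04 (SD, n = 3 each), a 1.24-fold rise (log2 difference 0.31 ± 0.06, SE; limma adjusted p = 0.00590). Smad7, which recruits ubiquitin ligases to the TGF-beta receptors, gave 7.74, 7.79 and 7.82 on control arrays and 7.83, 7.88 and 8.04 on HA-Fbxl10 arrays. The groups were separate by a narrow gap only. Its log2 difference was 0.14 ± 0.07 (SE; limma adjusted p = 0.260), with a 95% interval of -0.03 to 0.30, and it was 0.07 without HA-Fbxl10 replicate 3.

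Parts of some chromosomes had medians away from 0, so each gene is also given beside the 31 nearest genes above the median level. For Tgfb2 the neighbours had a median log2 difference of 0.03 and none rose as much. The neighbours of Tgfb3 had a median of -0.03, and 2 of 31 rose more. Those of Tgfb1 had a median of -0.04, and 3 of 31 fell more. These changes thus kept their size when the neighbours' median was removed, at 0.93 for Tgfb2, 0.54 for Tgfb3 and -0.32 for Tgfb1, all past the threshold.

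Smad6 lies on chromosome 9, where its neighbours had a median of 0.26 and 14 of 31 were called higher. With that median removed its log2 difference was 0.04 (limma adjusted p = 0.633), and with the median of chromosome 9 removed it was 0.09 (0.329), so the rise of Smad6 is of the size seen in its surroundings. Tgfbr3 on chromosome 5 had neighbours with a median of 0.16. Its difference was 0.27 with that median removed, just under the threshold (limma adjusted p = 0.0483). It was 0.26 (0.0558) with the chromosome's median removed. Tgfbr2, also on chromosome 9, and Inhba, on chromosome 13, lay among rising genes, with neighbour medians of 0.23 and 0.21. Relative to these they were lower, Tgfbr2 by -0.27 (limma adjusted p = 0.0155) and Inhba by -0.28 (0.0476). For Ltbp1 the neighbours' median (0.20) was close to its own difference, leaving 0.02 (limma adjusted p = 0.834). The removed median was treated as known without error, so these adjusted p-values are too small.

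**Figure D3:**
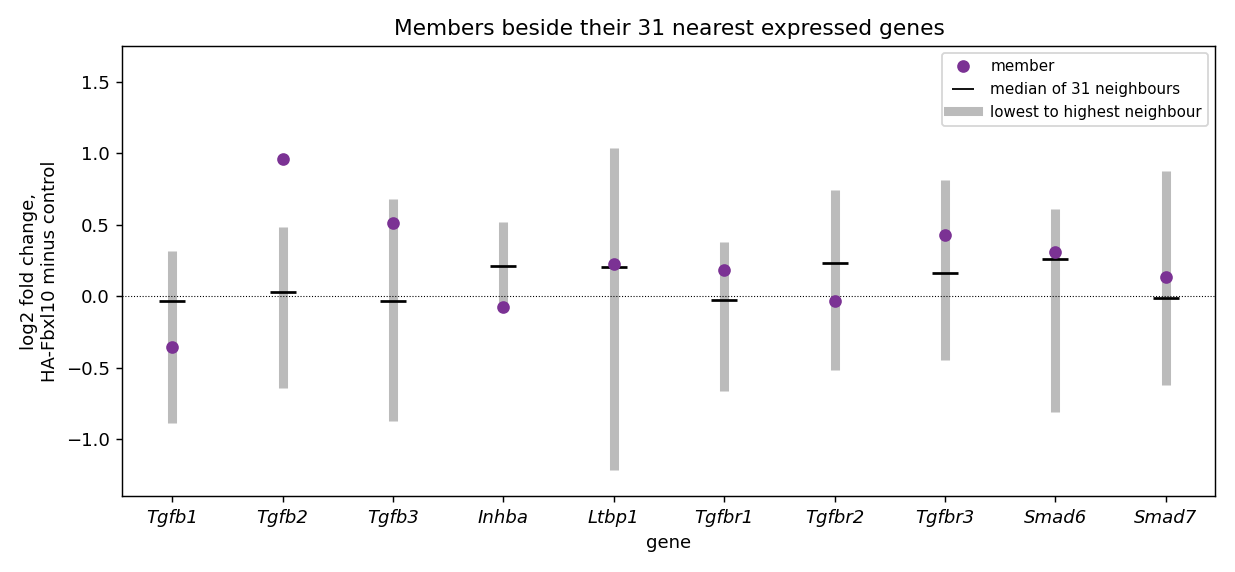
Log2 fold change (HA-Fbxl10 minus control, y axis) of each of the 10 genes (purple points) beside the 31 nearest expressed genes of its chromosome (black bar, median; grey bar, lowest to highest). Tgfb2 lies above all of its neighbours, and Smad6 and Ltbp1 lie close to the neighbours' medians.

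The rest of the pathway was read from 7 lists of other genes, 89 in all, of which 84 were measured. Of these 84 genes, 14 were higher, 14 lower and 56 did not pass the test, with a median log2 difference of 0.0013, beside the 21.1% of all genes called and the all-gene median of -0.0043. The count of lower genes was less firm than that of higher genes. It was 8 without control replicate 1, 9 without control replicate 3, 7 without HA-Fbxl10 replicate 1 and 8 without HA-Fbxl10 replicate 3. With array medians subtracted the split was 15 higher and 9 lower, and with the replicate number as a block 11 higher and 9 lower. With the median of 31 neighbours on the chromosome removed the counts were 15 and 13, with other genes among them. Smad1, Smad3 and Strap then lost their calls on the higher side, and on the lower side Ltbp3 (left at -0.047), Tob1 (-0.20), Inhbe (-0.16), Klf10 (-0.22) and Skil (0.037) did. Bhlhe40, Foxh1, Gdf11 and Smad9 were called higher and Dcn, Htra3, Tagln and Tgif1 lower with the neighbours' median removed and not without it.

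Among the 6 Smads that carry the signal, 3 rose and 0 fell, with a list median of 0.22. All genes were called higher at a share of 10.5%, and genes above the median level, where 5 of the 6 lie, were called in either direction at 37.0%. Smad2, which carries the TGF-beta and activin signal, gave 8.96, 9.03 and 9.06 on control arrays and 9.25, 9.35 and 9.37 on HA-Fbxl10 arrays (log2 difference 0.30 ± 0.07, SE; limma adjusted p = 0.00939). Its partner Smad3 gave 8.06, 8.17 and 8.16 on control arrays and 8.45, 8.44 and 8.43 on HA-Fbxl10 arrays (0.31 ± 0.06, SE; limma adjusted p = 0.00619). Smad1, of the BMP branch, gave 7.15, 7.09 and 7.36 on control arrays and 7.73, 7.64 and 7.59 on HA-Fbxl10 arrays (0.45 ± 0.08, SE; limma adjusted p = 0.00430). In all 3 genes the groups were apart. Smad4, the shared partner (0.05), and Smad5 (0.13) and Smad9 (-0.06) of the BMP branch did not pass. Smad3 and Smad6 are next to each other among the tested genes of chromosome 9, and their log2 differences were both 0.31. With the neighbours' median removed, Smad3 went to 0.05 (limma adjusted p = 0.606) and Smad1 to 0.15 (0.212), while Smad2 stayed at 0.32 (0.00841).

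Of 15 Smad cofactors and regulators, 4 rose and 2 fell (list median 0.07), and 14 of them lay above the median level, where 37.0% of genes were called. Smurf1, a ubiquitin ligase that Smad7 brings to the receptors, rose from 8.05 ± 0.08 to 8.60 ± 0.04 (SD, n = 3 each; log2 difference 0.54 ± 0.07, SE; limma adjusted p = 0.000516). The TGF-beta feedback inhibitor Pmepa1 rose by 0.29 ± 0.07 (SE; limma adjusted p = 0.0107) and the ligase gene Smurf2 by 0.29 ± 0.08 (0.0283), while the antiproliferative gene Tob1 fell by 0.27 ± 0.07 (0.0182). Smurf2 fell short of the threshold when replicate 1 or 2 of a group was left out (adjusted p of 0.0340 to 0.0930 over the 6 fits that left out 1 array), and Tob1 when replicate 1 or 3 was (0.0166 to 0.0637). The other genes counted, Strap (0.21, limma adjusted p = 0.0389) and Skil (-0.27, 0.0377), were each called in 1 of these 6 fits (0.0467 to 0.122 and 0.0174 to 0.131). Smurf1 and Pmepa1 were called in all 6, and without control replicate 1 they alone of the genes counted here were.

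The receptor, ligand and antagonist lists are read beside the 21.1% of all genes called in either direction. Above the median level lay 4 of 9 other receptors and co-receptors, 2 of 10 other ligands and 3 of 5 extracellular antagonists. Of the 9 receptors and co-receptors, 1 fell and 0 rose (list median -0.0039). It was Bambi, a decoy receptor without a kinase domain, at 5.56 ± 0.13 in control and 5.24 ± 0.10 in HA-Fbxl10 cells (SD, n = 3 each; log2 difference -0.32 ± 0.08, SE; limma adjusted p = 0.0249). It fell short when replicate 1 or 2 of a group was left out (adjusted p of 0.0121 to 0.0955 over the 6 fits). Of 10 other ligands, 1 rose (Inhbb) and 1 fell, Inhbe (-0.32 ± 0.08, SE; limma adjusted p = 0.0149; list median -0.0058). Inhbe lay below the lower quartile of genes in both groups, where signal and background cannot be told apart in these values, and its call ended without control replicate 1 or HA-Fbxl10 replicate 2 or 3 (0.0165 to 0.0599). Of 5 extracellular antagonists only Fst passed (list median -0.10).

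Of 12 genes of the latent complex and its activation, 1 rose (Ltbp2) and 2 fell (list median 0.12). Among all genes 21.1% were called, and 37.0% of those above the median level, where 8 of the 12 lay. Besides Ltbp3 the falling gene was Emilin1, which encodes a matrix glycoprotein known to bind the TGF-beta precursor and hinder its processing. It gave 9.26, 9.40 and 9.26 on control arrays and 8.67, 8.54 and 8.63 on HA-Fbxl10 arrays, 1.62-fold lower (log2 difference -0.69 ± 0.07, SE; limma adjusted p = 0.000167). It fell while its chromosome 5 neighbours had a median of 0.12, and all 31 of them lay above it. Thbs1, a matrix protein that can activate latent TGF-beta, did not pass (-0.13 ± 0.06, SE; limma adjusted p = 0.196), nor did Itgav (0.12), Itgb8 (0.17) or Furin (0.22). Thbs1 was called lower with a robust variance trend (limma adjusted p = 0.00702). Furin (0.0793) was called higher in 3 of the 15 other fits (0.0432 to 0.0481), and Itgav and Itgb8 in none.

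Known TGF-beta target genes of fibroblasts went in both directions, with 4 of 27 higher, 8 lower and 15 short of the threshold (list median -0.07). Of the 27, 24 lay above the median level, where 37.0% of genes were called in either direction. The count of this list was not tested against that share. Tgfbi, a secreted matrix protein named for its induction by TGF-beta, gave 7.44, 7.16 and 7.39 on control arrays and 6.01, 5.79 and 6.04 on HA-Fbxl10 arrays. It fell 2.61-fold (log2 difference -1.38 ± 0.10, SE; limma adjusted p = 2.07e-05). Cdkn2b, a CDK inhibitor gene, gave 8.46, 8.34 and 8.50 on control arrays and 7.62, 7.45 and 7.48 on HA-Fbxl10 arrays, a 1.89-fold fall (-0.91 ± 0.07, SE; limma adjusted p = 4.74e-05). The matricellular gene Postn fell by more, from 6.84 ± 0.20 to 4.91 ± 0.18, and Ccn2 rose from 11.52 ± 0.07 to 12.42 ± 0.02 (SD, n = 3 each). The neighbours of Postn on chromosome 3 had a median of -0.32, and 22 of 31 were called lower. With that median removed its log2 difference went from -1.93 to -1.61 (limma adjusted p = 3.08e-05). The other genes called, named after their values were seen, were Pdgfb (0.86), Nox4 (0.68) and Lox (0.22) on the higher side, and Id3 (-0.69), Junb (-0.35), Hmga2 (-0.33), Il11 (-0.31) and Klf10 (-0.27) on the lower side, all as log2 differences. Lox lost its call without any 1 array (limma adjusted p of 0.0526 to 0.110), Il11 without any 1 other than HA-Fbxl10 replicate 2 (0.00904 to 0.145), Klf10 when replicate 1 or 3 of a group was left out (0.0418 to 0.151), and Junb without control replicate 2 (0.0568) or HA-Fbxl10 replicate 1 (0.0553). The HA-Fbxl10 arrays of Id3 ranged from 9.30 to 10.02, the widest spread among these genes. The contractile genes Acta2 (-0.18), Tagln (-0.04) and Cnn1 (0.02) and the collagen genes Col1a1 (-0.16) and Col1a2 (-0.08) did not pass. Acta2 (limma adjusted p = 0.0575) was called lower in 4 of the 15 other fits, which were quantile normalisation (0.0279), array weights (0.0448), the dimmest 30% of genes left out (0.0329) and a robust variance trend (0.000145). Tagln was called lower with the neighbours' median (-0.25, limma adjusted p = 0.0266) or the chromosome median removed (-0.26, 0.0240), and Col1a1 with the robust variance trend (0.0487).

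**Figure D4:**
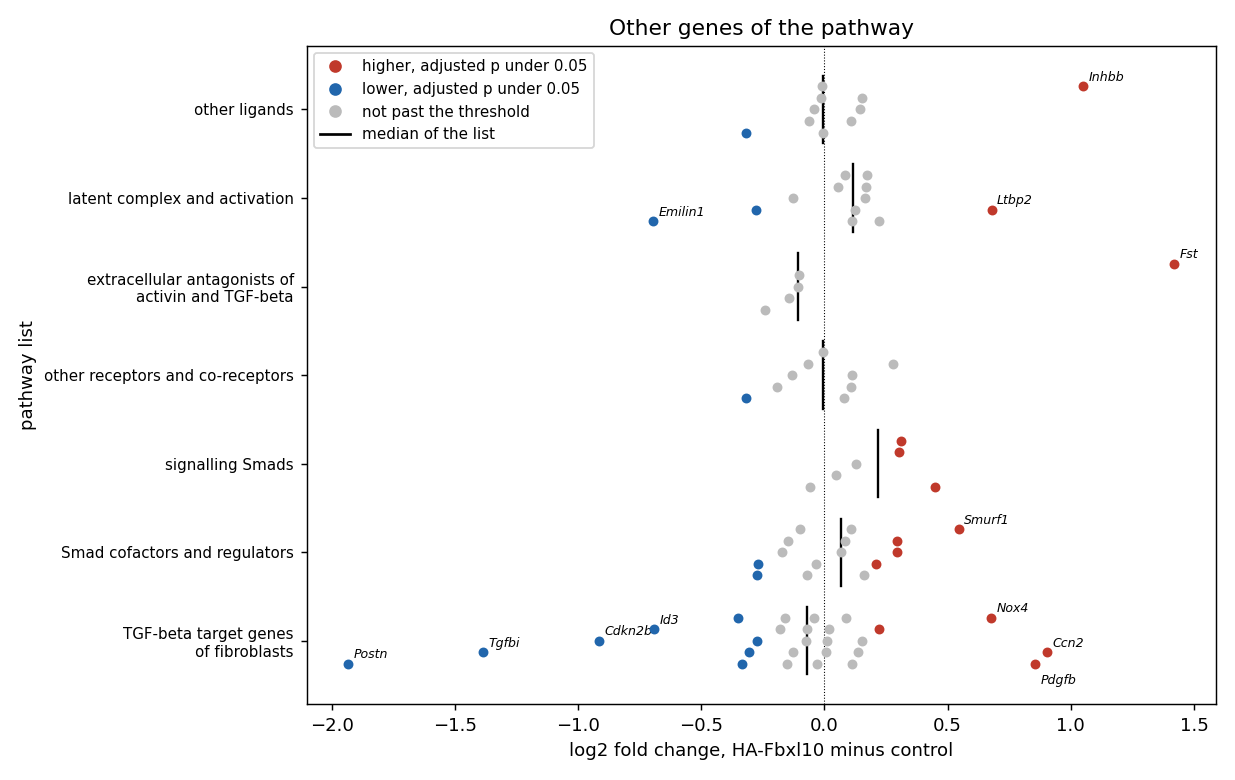
Log2 fold change (HA-Fbxl10 minus control, x axis) of each measured gene in the 7 lists of other pathway genes (rows); red and blue points passed an adjusted p of 0.05, grey points did not, and black lines mark list medians. Points are spread vertically for legibility. Fst (1.42) and Inhbb (1.05) lie farthest to the right and Postn (-1.93) and Tgfbi (-1.38) farthest to the left.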

How the data were processed

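Log2 values per probe set were deposited for 6 arrays, computed by the authors with RMA according to the submitters' processing notes; its version, settings and genome build are not stated there. Per the labels, 300 ng of RNA was used per array. RMA equalises array distributions (array medians 4.69 to 4.79), which hides any shift that most genes share, and it compresses low values. Of 35556 probe sets, 21789 name 1 gene, 1621 several and 12146 none; symbols were updated through Entrez identifiers or accessions to RefSeq (GRCm38.p6), 88 keeping the annotation's symbol. The brightest probe set per gene was used, without a filter on dim genes, leaving 19936 genes. Each of the 10 genes has 1 probe set.

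The comparison used lmFit and eBayes of limma 3.58.1 (R 4.3.3), two-sided. In a simulation of HA-Fbxl10 against control with 19936 genes, log2 changes of 0.5, 1 and 2 were put into 61, 67 and 72 genes. The fit recovered 68.9%, 98.5% and 100% of them, with 11 false calls among 191. Far fewer genes were changed than the 21.1% called in the data, and none by less than 0.5. Recovery in the data can therefore differ, and that of smaller changes was not simulated. The 10 genes and the lists were chosen with earlier results of these data known. Named were Kdm2b, the 10 genes, all signalling Smads, up to 4 called genes with the largest change from each pathway list and up to 2 from each marker list; others were named after their values were seen. Some genes of the pathway and marker lists were not analysed here, and the counts cover those that were. Figures were drawn with matplotlib 3.10.9. The number of arrays limits the precision. The other settings tried were quantile normalisation, array medians subtracted, the dimmest 30% of genes left out, probe sets averaged, a robust variance trend, array weights, a replicate block, an adjusted p of 0.01, each array left out, and the median of 31 neighbours or of the chromosome removed.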

Additional observations from a re-analysis of the deposited data

How the results depend on the processing

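The calls of Tgfb1, Tgfb2 and Tgfb3 held, with their directions, in all 15 other fits, with log2 differences of -0.41 to -0.32, 0.87 to 1.09 and 0.46 to 0.55. Leaving out single arrays ended or made no call among the 10 genes, whose counts stayed at 4 higher and 1 lower. Removing local or chromosome medians did change calls. With the 31-gene median removed 3 genes were higher and 3 lower, Inhba (-0.28) and Tgfbr2 (-0.27) now being called and Smad6 (0.044) not. With the chromosome median removed 2 were higher and 2 lower, Tgfbr2 (-0.25) being called and Tgfbr3 (0.26) and Smad6 (0.089) not. Ltbp1 passed with array medians subtracted (0.26), the dimmest 30% of genes left out (0.23), a robust variance trend (0.23) or array weights (0.25). Tgfbr2 changed sign with array medians subtracted, at 0.0017. At an adjusted p of 0.01 there were 1227 genes higher and 1309 lower in all, and 5 other pathway genes lower. That last count was 9 with array medians subtracted or with the replicate block, and 7 to 11 without single arrays. Of the 28 other pathway genes called, 9 higher and 6 lower were called in every other fit at the 0.05 threshold. Same-numbered arrays of the groups deviated from their group means with correlations of 0.0851, -0.283 and -0.0934. Arrays with different numbers gave -0.224 to 0.281. These values showed no pairing by number, but with 3 arrays per group they cannot settle whether the numbers pair the arrays. The replicate block changed no call among the 10 genes. Signal over background could not be judged, since the table gives no detection calls.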
